A study of Equus caballus with 4 samples.

Results

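This account covers 9 genes of the p53 and DNA damage response in equine satellite cells (ESC), which are the stem cells of muscle and form myotubes when they differentiate. The genes were MDM2, CDKN1A, CCNG1, SESN1, GADD45A, GADD45B, GADD45G, ATM and ATR (*mdm2*, *cdkn1a* and so on below). They were chosen by name, with earlier results of these data known, and every probe that carried one of these symbols was taken. They had 15 probes of 60 bases among the 43603 probes on the horse array that were not controls, and 9 of its 14633 gene symbols. A single probe stood for 5 of the genes, and the other 4 had several.

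The cells came from m. semitendinosus, and their RNA was taken on day 3 of differentiation. Cells of the HMB-treated group spent 24 h in medium with 50 µM β-hydroxy-β-methylbutyrate (HMB), which is made from leucine, and 3 mM H2O2 was present for the last 1 h. The control group was exposed to H2O2 but received no HMB, and hence H2O2 exposure was common to both groups and no cells without it were on the arrays. On each of 4 arrays, cRNA of the HMB-treated group labeled with Cy5 was hybridized together with control cRNA labeled with Cy3, and each array counted as 1 replicate. The dyes were never swapped, so that HMB and dye cannot be told apart. All 4 arrays lay on 1 slide. The series describes 4 control replicates, whereas the label of each array gives its control the same replicate number, and the methods took 1 selected culture forward. The p-values therefore measure the spread between arrays, which may be technical, and if the control was 1 RNA they leave out the spread between controls.

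The p53 protein is a transcription factor that is held at a low level by Mdm2 and is stabilized after DNA damage. The kinases Atm and Atr start this response, Atm mainly at double-strand breaks and Atr at stalled replication forks, and both phosphorylate checkpoint kinases and p53. Among the genes that p53 turns on are *mdm2* itself, the cell cycle inhibitor *cdkn1a* (p21), cyclin G1 (*ccng1*), sestrin 1 (*sesn1*) and *gadd45a*. In muscle cells p21 is also known for the cell cycle exit that goes with differentiation, and several *gadd45* genes answer to stress without p53. All of these readouts are transcript levels, whereas p53, Atm and Atr are controlled largely at the protein.

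The bases of 8 probes that read through an open frame are shown, because a value below is the signal of such a stretch and not of the whole transcript, and because *gadd45g* and *atr* were read in separate regions. They were copied from the files, 5′ to 3′. Probe 2 of *gadd45g* is given from its start codon on and the others whole. The start or stop codon is in capitals where a probe holds one.
gadd45g, probe 1: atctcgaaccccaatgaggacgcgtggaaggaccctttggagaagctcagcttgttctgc
gadd45g, probe 2 from its start codon: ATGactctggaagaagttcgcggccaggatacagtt
cdkn1a: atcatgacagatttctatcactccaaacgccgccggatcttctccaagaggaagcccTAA
mdm2: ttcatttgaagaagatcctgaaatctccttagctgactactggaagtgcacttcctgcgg
atr, probe 1: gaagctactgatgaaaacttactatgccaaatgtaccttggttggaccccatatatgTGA
atr, probe 2: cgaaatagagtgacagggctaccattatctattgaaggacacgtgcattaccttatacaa
atr, probe 3: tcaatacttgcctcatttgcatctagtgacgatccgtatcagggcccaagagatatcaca
atr, probe 4: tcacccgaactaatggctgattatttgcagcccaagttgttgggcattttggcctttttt

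On the EquCab1 build given in the files, the *gadd45g* probes lay at chrUn:211079699-211079846 and chrUn:211078935-211078994, both on the plus strand. The first of them spans 148 bases of genome for 60 bases of probe and so crosses a gap in the alignment, as a probe over an exon junction does. The same held for *cdkn1a* at chr20:30004703-30006123, which spans 1421 bases, and for *mdm2* at chr6:80865734-80867459, which spans 1726. Probe 1 of *atr* lay at chr16:84010240-84010299 and probe 2 directly before it at chr16:84010180-84010239. Probes 3 and 4 of *atr* belonged to another transcript model at chr16:83932041-83932100 and chr16:83932101-83944579, 65601 bases upstream of the pair that ends at the stop codon. The longest run of identical bases that any probe of the 9 genes shared with a probe of another symbol was 15, and between different genes of the 9 it was 9. The *gadd45* paralogs were thus read by probes of unlike sequence. The probes were compared with each other and not with whole transcripts, so that binding to the transcript of a paralog was not tested. The files give no exon or intron for a probe.

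Of the 15 probes, 12 were tested, standing for 8 genes. A probe was tested if its Cy3 or its Cy5 signal was well above background on all 4 arrays. The only *mdm2* probe and probes 3 and 4 of *atr* missed this limit. The ratio of Cy5 over Cy3 is given on the log2 scale, on which a negative value means a lower level in the HMB-treated group. A probe was called at a limma adjusted p of 0.05 or less together with a fold change (FC) of 1.3 or more. By this rule, 5 probes of 4 genes were called and all 5 were lower in the HMB-treated group: *sesn1*, *gadd45a*, *gadd45b* and both probes of *gadd45g*. No probe of the 9 genes was called higher. Over all 24650 tested probes 28.6% were called, with 16.4% lower and 12.2% higher. By gene, each taken at its brightest tested probe, 4 of 8 were called, against 27.5% of the 8701 tested genes, of which 17.3% were lower and 10.2% higher. The median log2 ratio was −0.44 over the 8 genes and −0.085 over all tested genes. In these bulk samples, fewer cells of a type and less RNA per cell cannot be told apart.

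**Figure D1:**
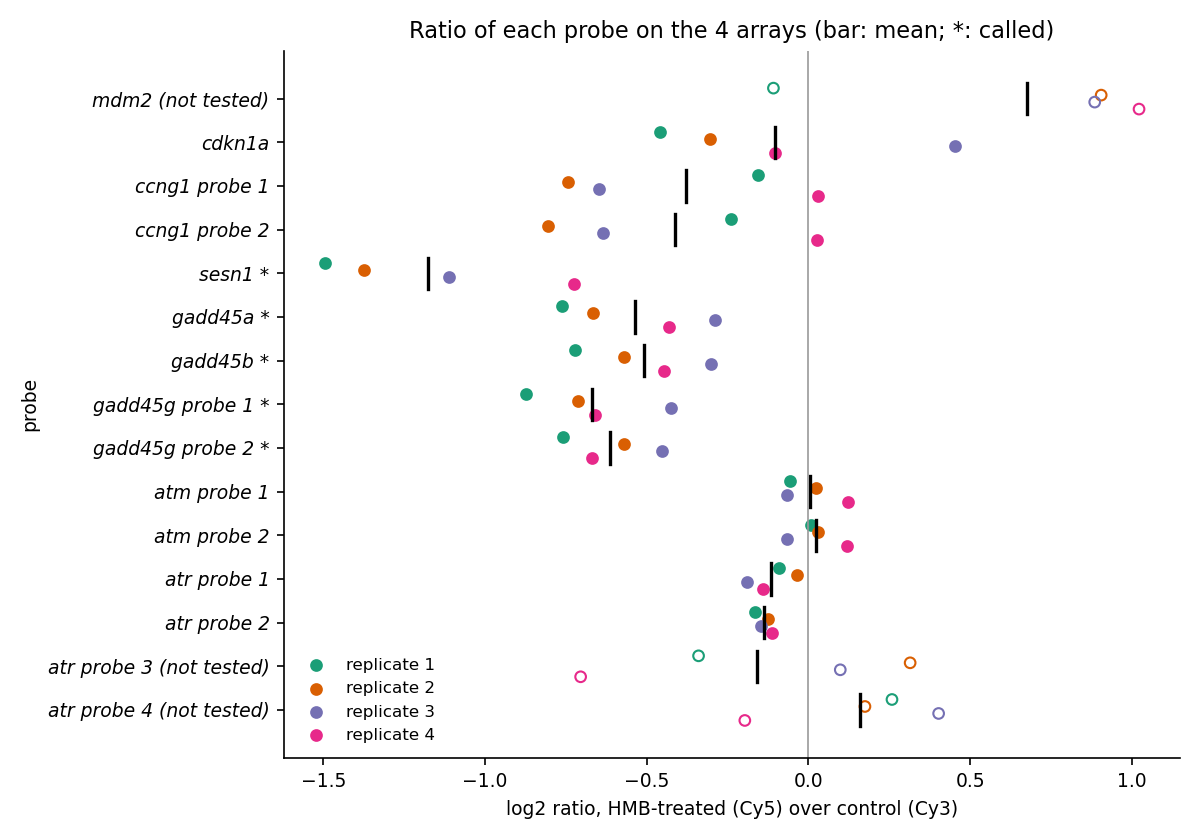
Log2 ratio of the HMB-treated group over the control (x axis) for each of the 15 probes (y axis), with 1 point for each of the 4 arrays and a bar at their mean. Filled points are tested probes, open points are probes too dim to test, and an asterisk marks a called probe. All points of *sesn1* and of the *gadd45* genes lie below 0, while those of *atm* lie on both sides of it.

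Sestrin 1, a stress-induced protein that restrains mTORC1 and supports antioxidant defence, had the largest fall of the 4 called genes as the signals were deposited. Its control signal was 99.3, 86.6, 126 and 107 on replicates 1 to 4, in arbitrary units of the scanner after normalization. The signal of the HMB-treated group on the same arrays was 35.2, 33.4, 58.4 and 64.7. No signal of the HMB-treated group reached the lowest control signal, so the groups did not overlap. The share of all tested probes without overlap was not counted, and hence this does not set *sesn1* apart from them. The log2 ratios were −1.50, −1.37, −1.11 and −0.73, with a mean of −1.18 ± 0.34 (SD, n = 4), and *sesn1* stood at 44.2% of the control (95% confidence interval 35.6% to 55.0%, limma adjusted p = 0.00082). Only 1.36% of all tested probes had a lower mean ratio. The probe lay at chr10:53516122-53516181 on the minus strand. The size of the fall depended on the background correction: it was −0.39 with normexp and −0.54 without background correction, and was called with both. With normexp its fall was smaller than those of *gadd45a* (−0.53), *gadd45g* (−0.51) and *gadd45b* (−0.41). An offset of 50 was added to both channels there, which draws the ratio of a dim probe such as *sesn1* closer to 0. The part of the offset in this order was not tested.

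The *gadd45* genes encode small stress proteins that bind p21, Pcna and the kinase Map3k4 and are linked to repair, growth arrest and p38 signaling. *gadd45a*, the member best known as a p53 target, had control signals of 8813, 7674, 9998 and 8878 and signals of 5199, 4835, 8192 and 6583 in the HMB-treated group. Replicate 3 of the HMB-treated group lay within the range of the control signals, yet on every array the Cy5 signal was below the Cy3 signal of the same spot. The log2 ratios of −0.76, −0.67, −0.29 and −0.43 averaged −0.54 ± 0.22 (SD, n = 4), which is 68.9% of the control (95% confidence interval 58.9% to 80.7%, limma adjusted p = 0.0050). The probe lay at chr5:66578393-66578452 on the minus strand. With the methods' t-test, the adjusted p of *gadd45a* was 0.0509, just past the threshold.

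*gadd45b*, which answers to inflammatory and TGF-β signals as well as to damage, had control signals of 1288, 1140, 1242 and 890 and signals of 781, 767, 1008 and 653 in the HMB-treated group. The groups overlapped through replicate 3 of the HMB-treated group and replicate 4 of the control. Its log2 ratios of −0.72, −0.57, −0.30 and −0.45 averaged −0.51 ± 0.18 (SD, n = 4), or 70.2% of the control (95% confidence interval 61.0% to 80.9%, limma adjusted p = 0.0040). The probe lay at chrUn:296619306-296619365 on the minus strand.

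*gadd45g*, the last member of the family, was the lowest of the 3 by its mean, but the intervals of all 3 overlapped. Control signals of its first probe were 966, 966, 896 and 611, and those of the HMB-treated group were 527, 590, 667 and 387. Replicate 4 was the dimmest array for this probe in both channels, and the groups overlapped through its control and replicate 3 of the HMB-treated group. The log2 ratios were −0.87, −0.71, −0.43 and −0.66 with a mean of −0.67 ± 0.19 (SD, n = 4), or 62.9% of the control (95% confidence interval 54.5% to 72.7%, limma adjusted p = 0.0015). Probe 2, which covers the start codon, gave −0.76, −0.57, −0.45 and −0.67, with a mean of −0.61 and a limma adjusted p of 0.0011. Hence both stretches of this transcript showed the fall on every array.

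The arrays with the extreme ratios were the same within the family. Replicate 1 had the largest fall and replicate 3 the smallest for *gadd45a*, *gadd45b* and both *gadd45g* probes. In *sesn1*, replicate 1 also had the largest fall, but the smallest was on replicate 4. The order was not particular to the family. *cdkn1a* also had its lowest ratio on replicate 1 (−0.46) and its highest on replicate 3 (0.45). The array medians of the myogenic markers given below had the same extremes, at −1.18 on replicate 1 and −0.80 on replicate 3. With limma's treat, which asks for an FC above 1.3 rather than above 1, *sesn1* was still called (adjusted p = 0.0054), whereas *gadd45a* (0.384), *gadd45b* (0.442) and the first *gadd45g* probe (0.0577) were not.

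**Figure D2:**
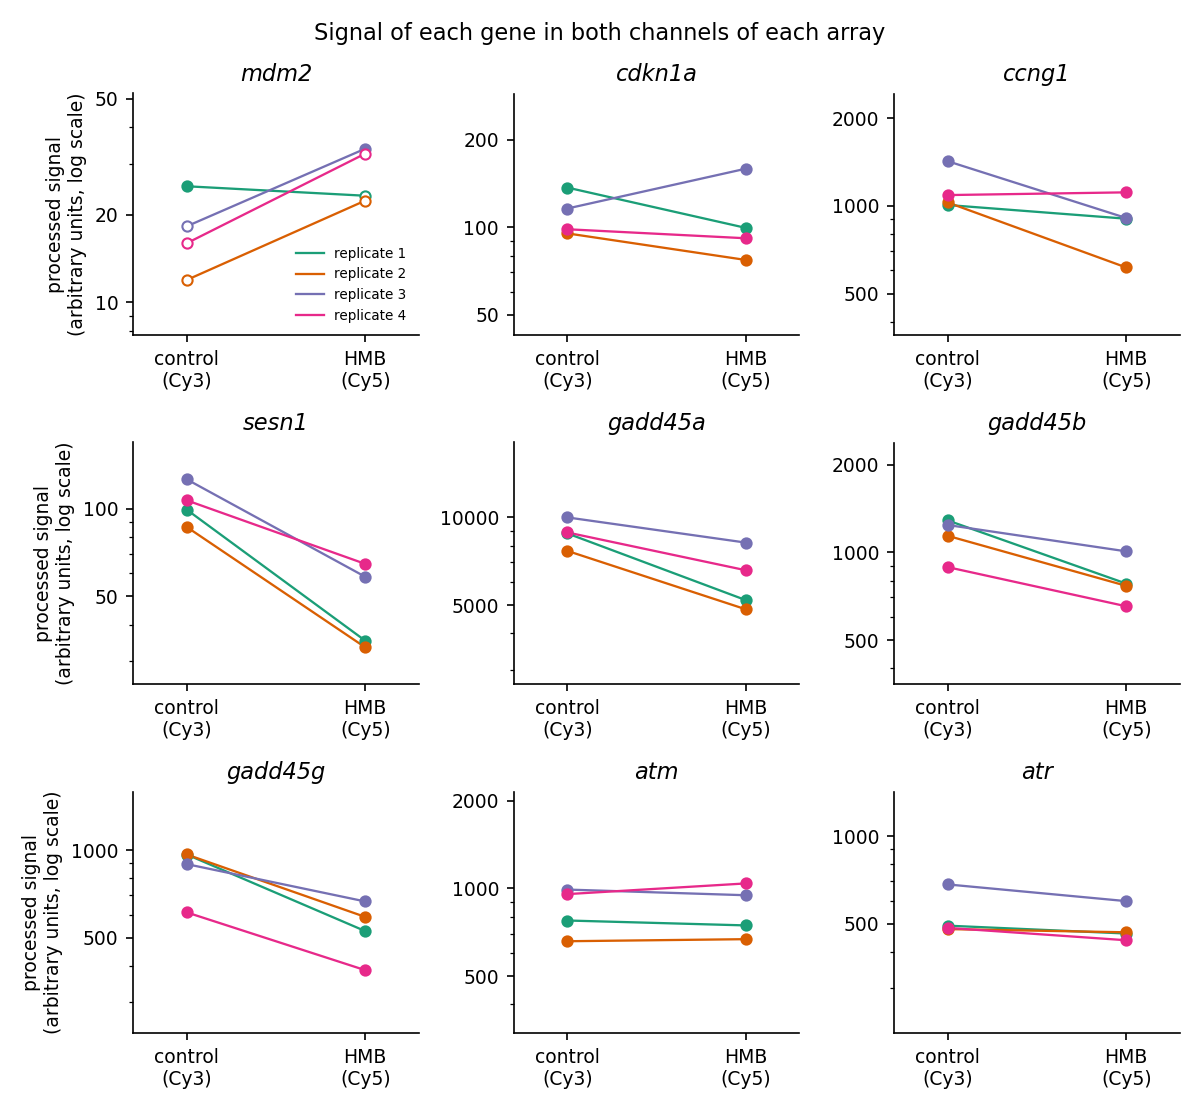
Processed signal in arbitrary units (y axis, log scale, a factor of the same height in each panel) in the control (Cy3) and HMB-treated (Cy5) channel (x axis) for each tested gene at its brightest tested probe, with 1 line for each array. For *mdm2* its only probe is shown, which was not tested. Open points are not well above background. The lines of *sesn1* fall from between 86.6 and 126 to between 33.4 and 64.7, and those of *mdm2* stay near the background in both channels.

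*mdm2*, the ubiquitin ligase that is both a target and the main inhibitor of p53, was too dim to test. Its control signals were 25.1, 11.9, 18.3 and 16.0, and only that of replicate 1 was well above background. The signals of the HMB-treated group were 23.3, 22.4, 33.7 and 32.4, and only that of replicate 3 was well above background. The log2 ratios were −0.11, 0.91, 0.89 and 1.02, so that replicate 1 stood apart from the other 3 arrays. Their mean of 0.68 ± 0.53 (SD, n = 4) had a limma adjusted p of 0.141 when dim probes were let into the test. No array had both channels well above background, and no fold is read from these ratios.

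*cdkn1a*, the p21 inhibitor of cyclin-dependent kinases, had control signals of 137, 95.3, 116 and 98.5 and signals of 99.6, 77.3, 159 and 91.7 in the HMB-treated group, all well above background. The arrays disagreed in direction, with replicate 3 higher and the other 3 lower in the HMB-treated group. The log2 ratios of −0.46, −0.30, 0.45 and −0.10 averaged −0.10 ± 0.40 (SD, n = 4, limma adjusted p = 0.597). The 95% confidence interval ran from 72.6% to 119% of the control, hence a change within these bounds in either direction could not be seen with 4 arrays. Without replicate 1 the mean was 0.016.

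Cyclin G1, a p53 target that brings phosphatase 2A to Mdm2, was read by a pair of adjoining probes, the brighter at chr14:16096135-16096194 and the other at chr14:16096195-16096254, on the minus strand. Control signals of the brighter probe were 1007, 1028, 1424 and 1089, and signals of the HMB-treated group were 904, 614, 909 and 1113. The signal of the HMB-treated group was lower on replicates 1, 2 and 3 and slightly higher on replicate 4. The log2 ratios were −0.16, −0.74, −0.65 and 0.03, with a mean of −0.38 ± 0.38 (SD, n = 4, limma adjusted p = 0.0676). The other probe gave −0.24, −0.80, −0.63 and 0.03, with a mean of −0.41 and a limma adjusted p of 0.0529. Neither was called, but both were called without replicate 4, the array with ratios above 0, at −0.52 (limma adjusted p = 0.0305) and −0.56 (0.0203). They were not called with any other array left out. The means were −0.45 and −0.47 without replicate 1, −0.26 and −0.28 without replicate 2, and −0.29 and −0.34 without replicate 3. The limma adjusted p-values of these fits lay between 0.0660 and 0.218. The confidence interval of the brighter probe, 60.7% to 97.4% of the control, comes from limma's moderated spread, which borrows from all tested probes. It is not adjusted for the number of probes. With the methods' t-test, which uses the spread of each probe alone, the adjusted p-values were 0.215 and 0.191.

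Neither kinase at the head of the pathway was called. *atm* had control signals of 776, 659, 991 and 956 at its brighter probe, at chr7:14082118-14082177, and signals of 747, 670, 948 and 1040 in the HMB-treated group. The log2 ratios of −0.06, 0.02, −0.06 and 0.12 averaged 0.01 ± 0.09 (SD, n = 4, limma adjusted p = 0.944), with a 95% confidence interval of 90.1% to 112% of the control. The second *atm* probe, at chr7:14079302-14079361, averaged 0.02 with an interval of 91.4% to 113%. The channels of both probes differed by less than the spread between arrays.

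*atr* had control signals of 493, 479, 683 and 484 at its first probe and signals of 463, 468, 598 and 439 in the HMB-treated group. The ratio was a little below 0 on all 4 arrays, at −0.09, −0.04, −0.19 and −0.14, with a mean of −0.11 ± 0.07 (SD, n = 4, limma adjusted p = 0.171). The second probe gave −0.17, −0.13, −0.15 and −0.11 with a mean of −0.14 and a limma adjusted p of 0.0933. The intervals ran from 83.3% to 102% of the control and from 82.5% to 100.1%. Neither probe was called.

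Probes 3 and 4 of *atr* had control signals between 19.9 and 37.0 and signals between 20.3 and 39.3 in the HMB-treated group. They gave ratios of −0.34, 0.31, 0.10 and −0.70 and of 0.26, 0.17, 0.40 and −0.20. The signs differed among the arrays in both, and each channel was well above background on only some arrays. They were not tested, and these ratios say nothing on *atr* beyond the first pair.

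The other genes of the pathway were taken from 6 lists of 168 different genes, of which 141 had a probe under their symbol, 118 were tested and 18 were called, 7 higher and 11 lower. In the p53 targets, 7 of 23 tested genes were called (30.4%, against 27.5% of all tested genes), 4 higher and 3 lower, with a median log2 ratio of −0.11. Higher were *tp53i3*, a quinone oxidoreductase (0.77), *pmaip1*, the proapoptotic Noxa (0.71), the antiproliferative *btg2* (0.65) and *ccng2*, the other G-type cyclin (0.38). Lower were *ppm1d*, the phosphatase Wip1 that switches the damage response off (−0.60), the translesion polymerase *polk* (−0.56) and the p53-dependent survival factor *triap1* (−0.49). The other 16 tested targets were not called, and the share of calls was near that of all genes. With normexp 2 targets were called, while calls over all 24650 tested probes also fell, from 7044 to 3536. The second *btg2* probe was not called and stood at 0.29, and the second *ccng2* probe stood at 1.21. The HMB-treated signal of *polk* was well above background on 1 array only, so that it was tested through its control channel, and its ratio is uncertain.

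*pmaip1* had ratios of 0.81, 0.65, 0.77 and 0.61 on replicates 1 to 4, and all 5 of its probes were called higher. *ppm1d* had ratios of −0.59, −0.69, −0.55 and −0.57, a spread of 0.065 (SD, n = 4). *tp53i3* had ratios of 1.01, 0.72, 0.74 and 0.61. None of these 3 genes had arrays that differed in sign.

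Of the relatives and regulators of p53, 3 of 16 tested genes were called (18.8%), all lower, with a median of −0.13. These were the deacetylase *sirt1* (−0.51), the damage adaptor *tp53bp1* (−0.50) and the kinase *hipk2* (−0.44), which phosphorylates p53. The number called was 1 with normexp and 5 with median centering or without replicate 3. The acetyltransferase *kat5*, whose means ranged from 0.34 to 0.41 over 5 probes, was called higher on 3 of them but not on its brightest (0.35, limma adjusted p = 0.0077), which stayed under the FC of 1.3. This gene is named after its values were seen. *mdm4*, the relative of *mdm2* that also restrains p53, averaged 0.27 ± 0.27 at its brighter probe and was not called there (limma adjusted p = 0.088), while its other probe was called at 0.41.

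Of the damage sensors and checkpoint genes, 5 of 24 tested genes were called (20.8%), 2 higher and 3 lower, with a median of −0.13. *rad9a*, a subunit of the 9-1-1 clamp through which Atr is activated, had ratios of 1.23, 1.57, 1.19 and 0.92 and stood at 234% of the control. It rested on 1 dim probe, with control signals of 47.2, 42.6, 43.5 and 36.1. Both channels were well above background on all 4 arrays, but the size of the rise may depend on the background correction. The checkpoint kinase *wee1* was also higher (0.51), on arrays that ranged from 0.14 to 0.86. The clamp loader *rad17* (−0.48), *tp53bp1* and *prkdc*, the catalytic subunit of DNA-PK (−0.39), were lower. *chek1*, the main substrate kinase of Atr, averaged 0.29 ± 0.58 and differed in sign among the arrays, with 0.62, 0.92, −0.29 and −0.11. *chek2*, *sesn2* and *sesn3* had probes but were too dim to test.

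Of the DNA repair genes, 2 of 35 were called (5.71%), with a median of 0.06. The ligase *lig3* was called lower (−0.40), but its HMB-treated signal was well above background on 1 array only, so that it was tested through its control channel and its ratio is uncertain, and *pcna*, the replication clamp, was higher (0.56 ± 0.45). The ratios of *pcna* were 0.92, 0.93, 0.012 and 0.36, and only 1 of its 3 tested probes was called. Without replicate 1 or without replicate 4 the number of called repair genes was 0. Of the cyclin-dependent kinase inhibitors and G1 cyclins with their kinases, 2 of 14 were called (14.3%, median 0.09), *cdk6* lower (−0.62) and *ccng2* higher. *cdkn1b* (p27) was higher on all 4 arrays, at 0.21, 0.23, 0.26 and 0.25, but under the FC of 1.3. Of the partners of the Gadd45 proteins, 1 of 9 was called (11.1%, median −0.24), *map3k4* at −0.44.

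**Figure D3:**
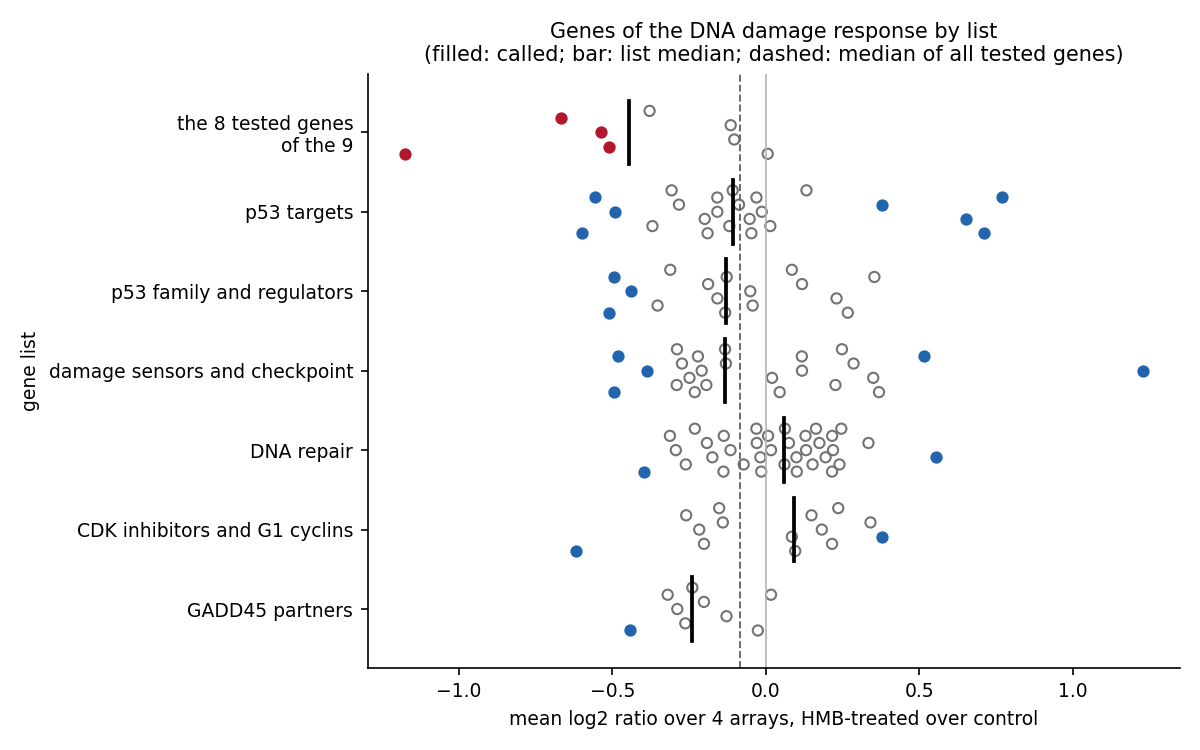
Mean log2 ratio over 4 arrays (x axis) of each tested gene in the 9 genes described and in 6 lists of related genes (y axis). Filled points are called genes, bars are list medians, and the dashed line is the median of all tested genes at −0.085. The 4 called genes in the top row all lie below 0, whereas called p53 targets lie on both sides.

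Markers of the cells were set beside these results. Of 10 myogenic markers with a probe, all were tested and 8 were called lower, with a median of −1.02. One of the 8, *myf6*, was not well above background in the HMB-treated group on any array and was tested through its control channel. Their summed signal was between 181674 and 206134 in the control and between 72913 and 114315 in the HMB-treated group. The array medians of the myogenic ratios were −1.18, −1.05, −0.80 and −1.05, and replicate 3 thus had the smallest fall, as in the *gadd45* genes. *myog* and *myod1* averaged 0.03 and 0.32. Of 9 tested fibroblast markers, 5 were called higher, with a median of 0.42, and their summed signal was between 510586 and 628337 in the control and between 526008 and 788671 in the HMB-treated group. The part of these shifts in the ratios of the 9 genes was not tested. Of 9 leukocyte markers with a probe, 4 were tested and 3 called, while *cd3e*, *cd79a*, *itgam* and *lyz* were not above background on any array, and the summed signal of the 9 was between 4355 and 5263 in the control and between 5089 and 7277 in the HMB-treated group. None of 5 endothelial markers was tested, *pecam1*, *vwf* and *cdh5* among them.

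The ratios rest on a scale on which most transcripts are level, because the signals had been balanced within each array. When the arrays were instead centered on the spike-in RNA, on the assumption that its mean log2 ratio is 0, the median of all tested probes moved by −0.60. On that scale all 12 tested probes were called lower, *sesn1* at −1.90, *gadd45a* at −1.07, and *atm* at −0.57 in place of 0.01. Most probes of the array were called there too, 20150 of 24640, and only 4.94% of those calls were higher. This scaling started from background-subtracted signals without lowess normalization. With median centering of the same signals, *sesn1* was at −1.23, *gadd45a* at −0.40 and *atm* at 0.10. From these signals, the spike-in scaling subtracts the same value from every probe of an array. The spike-in scaling therefore cannot test whether *sesn1* and the *gadd45* genes fell relative to the other transcripts. The sign of *atm*, which lay near 0, followed the shift of all probes. The expected ratio of the spike-in RNA is not given in the sources used here.

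**Figure D4:**
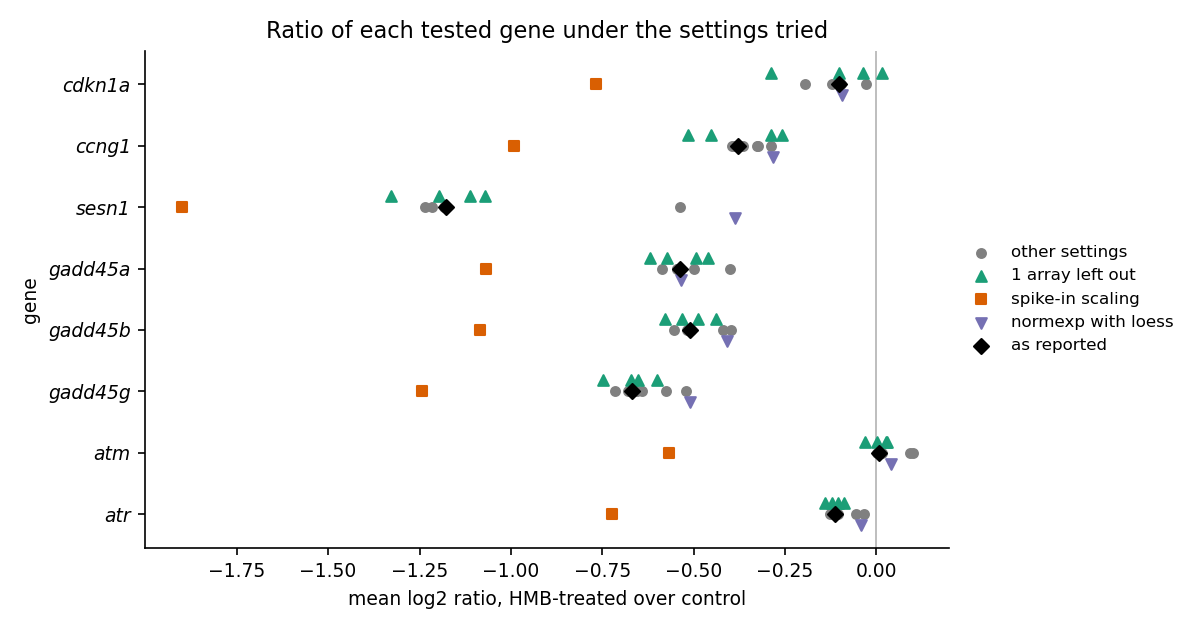
Mean log2 ratio (x axis) of the 8 tested genes (y axis) as reported and under the other settings tried, with triangles pointing up for fits that leave out 1 array. Points of *sesn1* and of the *gadd45* genes lie below 0 in each setting, from −1.90 to −0.39 for *sesn1*, and the spike-in scaling moves all 8 genes to the left.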

How the data were processed

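The values are from 4 Agilent horse arrays. The intensity of each spot, as the authors deposited it, is a background-subtracted signal after linear and lowess normalization within each array (Feature Extraction 10.10.1.1 and EquCab1, per the file headers). The deposited log10 ratios of Cy5 over Cy3 were turned here to the log2 scale by the factor 3.3219. Control spots and spots marked as outliers or non-uniform were left out, and spots of 1 probe were averaged. Non-control spots numbered 43803 per array, of which 55.2% to 61.8% were well above background in a channel, and the number of arrays limits the precision. Log2 ratios against 0 were tested with limma 3.58.1 in R 4.3.3, with Benjamini-Hochberg correction over all 24650 tested probes, which had a ratio on at least 3 arrays. The test was tried on simulated data. The 9 genes and the lists were chosen with earlier results of these data known. Named beside them were, per list, up to 4 called genes in each direction with 1 sign on all arrays, and *mdm4*, *chek1*, *chek2*, *sesn2*, *sesn3*, *ccng2*, *cdkn1b* and *cdkn1c*. No probe carried the symbol *cdkn1c* here, and 1 further gene of this rule is not reported here. Symbols came from the files and, for probes of other genes only, also from RefSeq's horse gene table. Alternatives covered the test, background, scaling, filters and each array left out.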

Additional observations from a re-analysis of the deposited data

Results flagged for a closer look

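*mdm2* was the 1 probe of the 15 examined on which a single array stood apart from the rest. Replicate 1 had a log2 ratio of −0.11, whereas the other 3 arrays lay between 0.89 and 1.02, and the gap took 0.879 of the whole range, above Dixon's critical value for 4 samples. Chance alone marks about 1 probe in 20 by this measure. No array had both channels of this probe well above background.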

How the results depend on the processing

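*sesn1* was called in each setting tried, and *gadd45b* and *gadd45g* in each one but limma's treat. With treat, 1 probe and 1 gene of the 9 were called and 2821 probes in all. The spike-in scaling gave 12 probes, 8 genes and 20150 probes in all, of which 4.94% were higher, against 42.5% of 7044 as reported; *atm* was −0.57 and its other probe −0.58 there. Normexp gave 3536 probes (55.0% higher), no background correction 4438 (60.1% higher) and treat 54.7% higher. With normexp, 2 p53 targets, 1 regulator, 2 sensors, 1 repair gene, 1 gene of the cell cycle list and 0 Gadd45 partners were called, and with median centering 5 regulators. With 1 array left out, the number of called probes of the 9 genes lay between 5 and 7, of genes between 4 and 5, of all probes between 6638 and 7152, of p53 targets between 6 and 8, of regulators between 2 and 5, of sensors between 4 and 6, of repair genes between 0 and 3, of the cell cycle list between 1 and 2 and of Gadd45 partners between 1 and 2. In these fits *cdkn1a* ranged from −0.29 to 0.016 (without replicate 1), *atm* from −0.032 (without replicate 4) to 0.030, and its other probe from −0.0099 (without replicate 4) to 0.053. The methods' t-test called 4 of the 12 probes after correction and 5 without it. The lesser *ccng1* probe was called with trend and robust moderation (adjusted p = 0.0408) and with both channels above background (0.0437). The causes were not tested. Each ratio already pairs the channels of its array, and the fit of separate channels with the array as a random block called 5 probes of the 9 genes and 6942 in all. Dim probes limit *mdm2* and probes 3 and 4 of *atr*.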
